A study of Mus musculus with 12 samples.

Results

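The genes described here are STAT transcription factors and the inhibitors that cytokine signalling induces against itself: Stat2, Stat3, Stat4, Stat5a, Stat5b, Stat6, Socs1, Socs3 and Cish. They were chosen by symbol, and all 9 were found among the 45703 genes of each expression table. Expression was measured by RNA sequencing in 12 libraries of mouse CD4+ T cells on a C57BL/6 background, 3 in each of 4 groups: Th17 cells of genotype Slc2a3-fl/fl Cd4-cre, wild-type Th17 cells, Th1 cells of genotype Slc2a3-fl/fl Cd4-cre and wild-type Th1 cells. Slc2a3 encodes the glucose transporter GLUT3, and the Slc2a3-fl/fl Cd4-cre cells are called GLUT3-deficient or KO below. The Cd4 promoter drives Cre throughout the T cell lineage from the thymus onwards, so the deletion precedes the culture. All groups started as naive T cells, which received stimulation of CD3 and CD28 together with Th1 or Th17 cytokines in a culture of 3 days. The labels give neither the age of the mice nor whether the wild-type cells carried loxP sites or Cre.

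Cytokines bind receptors whose chains carry Janus kinases, and these kinases phosphorylate STAT proteins, which then pair, enter the nucleus and bind DNA. In helper T cells STAT3 acts downstream of interleukin 6, 21 and 23 and is needed for Th17 differentiation, STAT4 acts downstream of interleukin 12 in Th1 cells, STAT5A and STAT5B act downstream of interleukin 2, STAT6 acts downstream of interleukin 4, and STAT2 acts with IRF9 downstream of type I interferon. Socs1, Socs3 and Cish are themselves STAT target genes. SOCS1 blocks Janus kinases and is known for restraining interferon signals, SOCS3 acts at receptors of the interleukin 6 family, and CIS, the product of Cish, is a STAT5-induced inhibitor of interleukin 2 and T cell receptor signals. Activation of STAT proteins is a phosphorylation event, which RNA levels do not measure.

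The values are TPM, a share of the transcripts of a library that takes the length of each gene into account, so they can be compared between genes. They do not tell fewer cells of a type apart from less RNA per cell. Between 16596283 and 28496606 reads were recovered per library. Of 7 defining Th17 markers, 6 were called higher in Th17 than in Th1 cells in GLUT3-deficient and 5 in wild-type cells, and of 7 defining Th1 markers, 5 were called lower in GLUT3-deficient and 6 in wild-type cells. Il23r, for a chain of the interleukin 23 receptor, was not called between wild-type lineages, at 15.5 ± 4.18 TPM in Th17 and 15.3 ± 1.12 TPM in Th1 cells (SD, n = 3 each). The Th1 markers summed to 1100 to 1810 TPM in GLUT3-deficient and 154 to 243 TPM in wild-type Th17 libraries, with 4 of 7 called higher and 0 lower, and to 12100 to 16600 TPM in GLUT3-deficient and 3280 to 3430 TPM in wild-type Th1 libraries, with 6 higher and 1 lower. The Th17 markers summed to 844 to 1290 TPM in GLUT3-deficient and 693 to 1240 TPM in wild-type Th17 libraries, with 1 of 7 higher and 0 lower, and to 10.9 to 29.8 TPM in GLUT3-deficient and 22.0 to 23.0 TPM in wild-type Th1 libraries, with 4 of 6 higher and 2 lower. Slc2a3 fell by 3.95 ± 0.85 on the log2 scale in GLUT3-deficient Th17 cells (SE, limma adjusted p = 0.0369) and by 4.23 ± 0.57 in GLUT3-deficient Th1 cells (limma adjusted p = 0.000901). The Th17 call for Slc2a3 was lost without any 1 library of that comparison other than GLUT3-deficient replicate 2 (limma adjusted p of 0.0654 to 0.136). The 3 libraries of wild-type Th17 cells spread widely for this gene, at 379, 109 and 44.6 TPM, and so did those of wild-type Th1 cells, at 398, 95.6 and 64.7 TPM. Replicate 2 of the GLUT3-deficient Th17 group stood apart from its group. Its median absolute difference over genes from the mean of the other 2 libraries of its group was 0.620 on the log2 scale. This measure was 0.136 to 0.424 in the other libraries, with 0.424 in replicate 3 of the same group, whose comparison includes replicate 2. Of the 13823 genes tested in Th17 cells, 25.8% were at least 2-fold higher in GLUT3-deficient replicate 2 than in the mean of the other 2. Another 4.27% were at least 2-fold lower in it. Results that rest on this library are given below with and without it.

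Genes with at least 1 TPM in at least 3 libraries of a comparison were tested on log2(TPM + 1) with limma, and all 9 genes passed that filter in every comparison. A change was called at a Benjamini-Hochberg adjusted p under 0.05 over all genes tested. Because 1 TPM was added before the logarithm, fold changes of low genes such as Stat2 come out too small. The labels do not say whether replicates came from separate mice, so the p-values measure the spread between these libraries only.

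GLUT3-deficient cells of both lineages held more Socs1 RNA, and GLUT3-deficient Th1 cells also held more Cish and Socs3, whereas none of the 6 STAT genes passed the test between genotypes in either lineage. In Th17 cells 1 of the 9 genes was called higher and 0 lower, where 4.60% of all genes tested were called higher and 2.70% lower. In Th1 cells 3 of the 9 were called higher and 0 lower, where 17.6% of all genes were called higher and 13.7% lower. The median log2 fold change over the 9 genes was 0.14 in Th17 cells and 0.34 in Th1 cells, against 0.04 and 0.03 over all genes tested in those lineages. The libraries of the genotypes did not overlap for 1 of the 9 genes in Th17 cells and for 4 in Th1 cells, where this held for 36.7% of all genes tested in Th17 and 47.1% in Th1 cells.

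**Figure D1:**
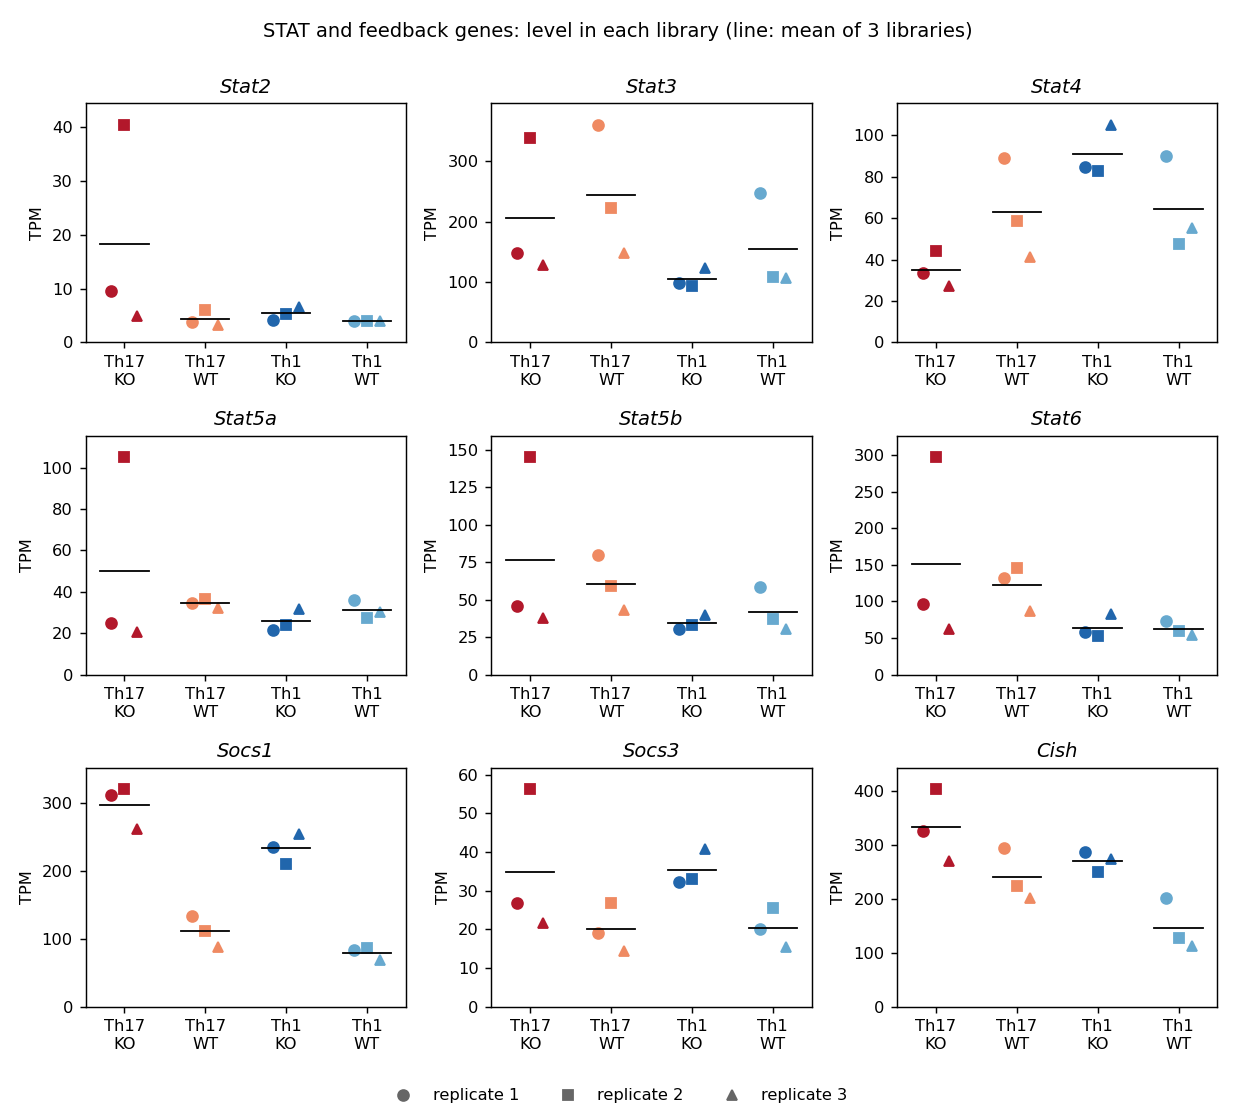
Level of each gene in TPM (vertical axis, linear, from 0) in each of the 12 libraries, by group along the horizontal axis. Symbols are libraries by replicate number and lines are means of 3. Socs1 of the KO groups lies between 210 and 320 TPM, above 68.6 to 133 TPM in the WT groups, and replicate 2 of the Th17 KO group is the highest of its group in every panel.

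Socs1 (gene ID 12703, chr16:10783808-10785536, minus strand, GRCm38.p6) did not overlap between genotypes in either lineage. It stood at 311, 320 and 262 TPM in GLUT3-deficient Th17 libraries, against 133, 111 and 88.5 TPM in wild-type Th17 libraries. The Th1 values were 235, 210 and 254 TPM in GLUT3-deficient libraries, against 83.4, 86.1 and 68.6 TPM in wild-type ones. The lowest GLUT3-deficient library of the study exceeded the highest wild-type one. The log2 fold change was 1.43 ± 0.21 in Th17 cells (SE, 95% interval 0.93 to 1.93, limma adjusted p = 0.0129). It was 1.54 ± 0.15 in Th1 cells (95% interval 1.20 to 1.89, limma adjusted p = 0.000226). Replicate 2 of the GLUT3-deficient Th17 group stood 1.12-fold above the mean of the other 2 for Socs1, and without it the log2 fold change was 1.38 ± 0.22 (limma adjusted p = 0.00715). The call in Th17 cells was lost without GLUT3-deficient replicate 1 (1.40, limma adjusted p = 0.0872), wild-type replicate 2 (1.44, adjusted p = 0.0766) or wild-type replicate 3 (1.28, adjusted p = 0.0708). The call in Th1 cells held under all 13 alternatives, with limma adjusted p between 0.000186 and 0.0027.

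Cish (gene ID 12700, chr9:107296659-107302784, plus strand) was the most abundant of the 9 genes in GLUT3-deficient cells of both lineages by its mean. The Th1 values were 287, 250 and 274 TPM in GLUT3-deficient libraries, against 201, 127 and 112 TPM in wild-type ones, and the groups did not overlap. It rose by 0.92 ± 0.21 on the log2 scale there (95% interval 0.44 to 1.41, limma adjusted p = 0.011), and the call held under all 13 alternatives. The Th17 values were 326, 403 and 270 TPM in GLUT3-deficient libraries, against 295, 224 and 202 TPM in wild-type ones. These groups overlapped, and the log2 fold change of 0.47 ± 0.23 did not pass the test (95% interval -0.08 to 1.01, limma adjusted p = 0.256), nor did 0.32 ± 0.21 without GLUT3-deficient replicate 2 (adjusted p = 0.326).

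Socs3 (gene ID 12702, chr11:117966079-117970336, minus strand) stood at 32.2, 32.9 and 40.9 TPM in GLUT3-deficient Th1 libraries, against 20.1, 25.5 and 15.5 TPM in wild-type ones. The groups were apart, and the log2 fold change was 0.78 ± 0.20 (95% interval 0.32 to 1.24, limma adjusted p = 0.0188). That call was lost when all 12 libraries entered the model (limma adjusted p = 0.138) and without GLUT3-deficient Th1 replicate 3 (0.67, adjusted p = 0.0799). In Th17 cells Socs3 stood at 26.7, 56.2 and 21.7 TPM in GLUT3-deficient libraries, against 19.1, 26.8 and 14.3 TPM in wild-type ones. The Th17 groups overlapped, and the log2 fold change of 0.69 ± 0.40 (limma adjusted p = 0.329) was 0.29 ± 0.28 without the replicate 2 that stood apart (adjusted p = 0.498).

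The ratio of Cish to Socs1, in which the rise of Socs1 itself enters, also differed between genotypes. Cish RNA was 1.03 to 1.26 times Socs1 RNA in GLUT3-deficient Th17 libraries, against 2.03 to 2.29 times in wild-type ones. The same ratio was 1.08 to 1.22 in GLUT3-deficient Th1 libraries, against 1.47 to 2.40 in wild-type ones, and the groups did not overlap in either lineage. The sum of the 3 inhibitors divided by the sum of the 6 STAT genes was 1.46 to 1.86 in GLUT3-deficient Th1 libraries, against 0.597 to 0.839 in wild-type ones. In Th17 cells it was 1.85, 0.804 and 1.96 in GLUT3-deficient libraries, against 0.639 to 0.856 in wild-type ones, so replicate 2, whose STAT genes summed to 970 TPM, fell within the wild-type range. The rise of Socs1 in both lineages, and of Cish and Socs3 in Th1 cells, enters the sum of the inhibitors. These ratios are descriptions, with no test.

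The promoters of the 3 inhibitors are shown because they hold, or lack, the short elements through which STAT dimers bind. RefSeq sequences of GRCm38.p6 were matched by symbol for all 9 genes, giving 12 windows of 280 bases (250 before and 30 after an annotated start), and are read here on the strand of the gene. The interferon gamma-activated site (GAS), the element of STAT dimers, was searched as TTCNNNGAA, which reads the same on either strand. The paired GAAA element of interferon regulatory factors and of the STAT2 complex was searched on either strand as GAAANNGAAA. Capitals mark the matches.
Cish: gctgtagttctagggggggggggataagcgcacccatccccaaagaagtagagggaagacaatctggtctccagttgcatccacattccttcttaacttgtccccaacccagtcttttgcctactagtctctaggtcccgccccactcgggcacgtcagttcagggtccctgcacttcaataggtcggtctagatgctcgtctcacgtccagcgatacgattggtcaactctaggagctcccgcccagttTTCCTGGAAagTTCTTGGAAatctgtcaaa
Socs3: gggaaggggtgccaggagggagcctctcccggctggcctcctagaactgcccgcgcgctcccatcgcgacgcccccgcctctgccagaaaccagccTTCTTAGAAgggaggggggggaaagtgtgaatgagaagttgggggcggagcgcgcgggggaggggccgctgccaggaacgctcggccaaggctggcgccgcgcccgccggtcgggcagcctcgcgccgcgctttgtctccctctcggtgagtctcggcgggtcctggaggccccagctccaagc
Socs1: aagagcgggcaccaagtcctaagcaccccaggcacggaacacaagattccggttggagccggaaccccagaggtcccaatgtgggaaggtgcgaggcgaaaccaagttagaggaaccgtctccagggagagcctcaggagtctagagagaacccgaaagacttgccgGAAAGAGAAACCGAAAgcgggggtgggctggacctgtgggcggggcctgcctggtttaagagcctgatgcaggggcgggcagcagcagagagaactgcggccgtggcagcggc

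The Cish window (chr9:107296409-107296688) held 2 GAS matches, 1 and 12 bases into the transcript counting the start as 1. Of 32851 promoter windows of this length, 7.83% held at least 1 GAS match and 0.408% held 2 or more. The Socs3 window (chr11:117969337-117969616), which belongs to an annotated start inside the gene span given above, held 1 GAS match 154 bases before that start. The Socs1 window (chr16:10785507-10785786) held no GAS match and 2 paired GAAA matches that share 4 bases, 83 and 77 bases before the start. At least 1 paired GAAA match was found in 3.28% of windows and 2 or more in 0.21%. Among the STAT genes, Stat2 had 1 paired GAAA match, 222 bases before its start, and the second annotated start of Stat4 had 1, 97 bases before it. GAS with 4 bases between its ends, the spacing STAT6 prefers, was in 6.5% of windows and in 1 of the 12 windows of these genes, that of Stat2. A match is a run of letters, and binding was not measured.

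Among the STAT genes, Stat3 was the most abundant by its mean in every group, and Stat2 the least. Stat3 (gene ID 20848, chr11:100886806-100939594, minus strand), the Th17 factor, stood at 149, 339 and 129 TPM in GLUT3-deficient Th17 libraries, against 360, 223 and 149 TPM in wild-type ones. The Th1 values were 99.0, 94.2 and 124 TPM in GLUT3-deficient libraries, against 248, 108 and 107 TPM in wild-type ones. The groups overlapped in both lineages. The log2 fold change was -0.29 ± 0.45 in Th17 cells (95% interval -1.34 to 0.77, limma adjusted p = 0.727) and -0.43 ± 0.31 in Th1 cells (95% interval -1.13 to 0.26, limma adjusted p = 0.318). The Th17 value was -0.72 ± 0.33 without GLUT3-deficient replicate 2 (limma adjusted p = 0.179) and 0.038 without wild-type replicate 1 (adjusted p = 0.973).

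Stat4 (gene ID 20849, chr1:51987106-52107189, plus strand), the Th1 factor, had a lower mean in GLUT3-deficient Th17 cells and a higher mean in GLUT3-deficient Th1 cells than in the wild type. The Th17 values were 33.6, 44.3 and 27.2 TPM in GLUT3-deficient libraries, against 89.3, 58.5 and 41.5 TPM in wild-type ones, with 1 overlapping pair. The Th1 values were 85.0, 83.0 and 105 TPM in GLUT3-deficient libraries, against 89.9, 47.8 and 55.1 TPM in wild-type ones. The log2 fold change was -0.79 ± 0.33 in Th17 cells (limma adjusted p = 0.192) and 0.54 ± 0.24 in Th1 cells (limma adjusted p = 0.111), and neither passed the test. Without GLUT3-deficient replicate 2 the Th17 value was -0.97 ± 0.31 (limma adjusted p = 0.07). The Th1 value became a call without wild-type replicate 1 (0.81 ± 0.16, limma adjusted p = 0.00501). Tested directly, the genotype effect in Th17 cells minus that in Th1 cells was -1.33 ± 0.43 (95% interval -2.27 to -0.40, unadjusted p = 0.00914 from limma, adjusted p = 0.37).

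The share of Stat4 in the sum of the 6 STAT genes ran with genotype in Th1 cells: it was 27.1% to 28.5% in GLUT3-deficient libraries, against 16.8% to 19.6% in wild-type ones. In Th17 cells that share was 9.35%, 4.57% and 9.64% in GLUT3-deficient libraries, against 11.1% to 12.8% in wild-type ones. The ratio of Stat3 to Stat4 was 1.14 to 1.17 in GLUT3-deficient Th1 libraries, against 1.94 to 2.76 in wild-type ones. It was 4.44, 7.65 and 4.76 in GLUT3-deficient Th17 libraries, against 3.59 to 4.03 in wild-type ones. The groups did not overlap in these 4 descriptions, which had no test and which all contain Stat4. For single genes, the libraries of the genotypes did not overlap for 36.7% of all genes tested in Th17 and 47.1% in Th1 cells. Other ratios were computed as well. Stat5b over Stat5a overlapped between genotypes in both lineages. The share of Stat3 among the STAT genes and the ratio of Socs1 to Socs3 overlapped in Th17 but not in Th1 cells.

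Stat5b, Stat5a and Stat3 lie side by side on chromosome 11, with 346 bases between Stat5b (gene ID 20851, chr11:100780731-100859004, minus strand) and Stat5a (gene ID 20850, chr11:100859351-100885169, plus strand) and 1636 bases between Stat5a and Stat3. The paralogs Stat5a and Stat5b are near-identical in coding sequence, so reads in shared stretches may have been assigned to either or to neither. Stat5a stood at 25.0, 105 and 20.8 TPM in GLUT3-deficient Th17 libraries, against 34.7, 36.6 and 32.4 TPM in wild-type ones. Stat5b stood at 45.8, 145 and 37.8 TPM in GLUT3-deficient Th17 libraries, against 79.9, 59.0 and 42.9 TPM in wild-type ones. Both genes were high in GLUT3-deficient replicate 2 alone.

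The direction of the Th17 values of these paralogs turned with that library. With it the log2 fold change was 0.14 ± 0.57 for Stat5a (limma adjusted p = 0.904) and 0.11 ± 0.51 for Stat5b (adjusted p = 0.92). Without it the values were -0.58 ± 0.19 for Stat5a (limma adjusted p = 0.0772) and -0.49 ± 0.27 for Stat5b (adjusted p = 0.251). In Th1 cells Stat5a stood at 21.5, 24.1 and 31.7 TPM in GLUT3-deficient libraries, against 36.0, 27.1 and 30.3 TPM in wild-type ones. Stat5b stood at 30.4, 33.2 and 39.5 TPM in GLUT3-deficient Th1 libraries, against 58.2, 37.1 and 30.2 TPM in wild-type ones. Neither difference passed the test in Th1 cells, at -0.27 ± 0.19 for Stat5a (limma adjusted p = 0.307) and -0.23 ± 0.24 for Stat5b (adjusted p = 0.502).

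Stat6 (gene ID 20852, chr10:127642955-127660987, plus strand), the interleukin 4 factor, stood at 95.9, 297 and 62.1 TPM in GLUT3-deficient Th17 libraries, against 132, 146 and 87.4 TPM in wild-type ones. The Th1 values were 57.9, 52.8 and 82.2 TPM in GLUT3-deficient libraries, against 73.6, 60.1 and 54.2 TPM in wild-type ones. The groups overlapped in both lineages, and the log2 fold change was 0.02 in each, ± 0.55 in Th17 cells (limma adjusted p = 0.984) and ± 0.20 in Th1 cells (limma adjusted p = 0.946). Its 95% interval in Th1 cells ran from -0.43 to 0.48, and the Th17 value without replicate 2 was -0.62 ± 0.28 (adjusted p = 0.168). Stat6 overlaps Nab2 on the other strand, and the library kit does not mark strand. Nab2 was listed at 8.75 to 68.9 TPM.

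Stat2 (gene ID 20847, chr10:128270498-128292853, plus strand), the interferon factor, was the lowest of the 9 in every group. It stood at 9.47, 40.3 and 4.98 TPM in GLUT3-deficient Th17 libraries, against 3.87, 5.97 and 3.30 TPM in wild-type ones. The Th1 values were 4.19, 5.37 and 6.62 TPM in GLUT3-deficient libraries, against 3.97, 3.95 and 4.05 TPM in wild-type ones, with the groups just apart. The log2 fold change was 1.38 ± 0.68 in Th17 cells (limma adjusted p = 0.252), 0.59 ± 0.31 there without GLUT3-deficient replicate 2 (adjusted p = 0.229), and 0.34 ± 0.18 in Th1 cells (adjusted p = 0.188). Between 171 and 1239 reads lay behind each Stat2 value. The spans of Stat2, Stat3 and Stat4 also overlap other annotated genes, listed at up to 1.13 TPM (Apof, with Stat2), 28.7 TPM (Gm46295, with Stat3) and 21.1 TPM (Gm3940, with Stat4), whose reads could not be told apart by strand.

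**Figure D2:**
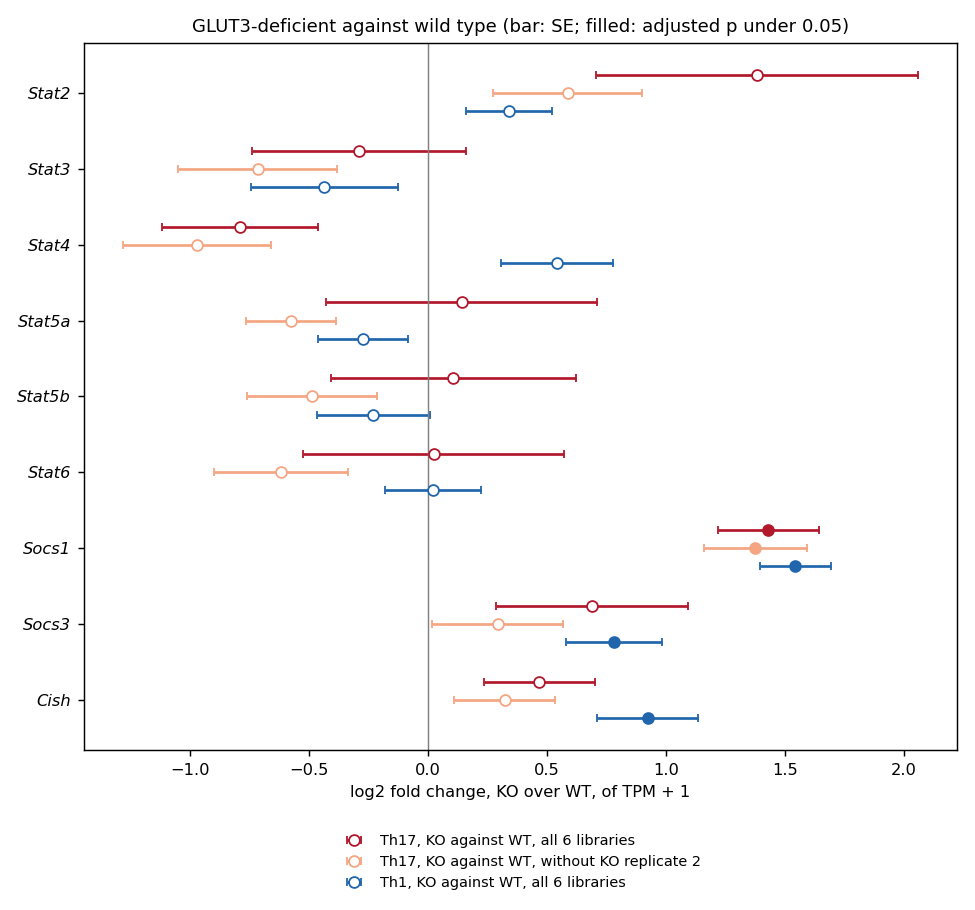
Log2 fold change of TPM + 1, KO over WT (horizontal axis), for each gene (rows). Points are limma estimates, bars are SE and filled points have an adjusted p under 0.05. Socs1 lies near 1.4 to 1.5 in each setting, and Stat5a, Stat5b and Stat6 change sign in Th17 cells when KO replicate 2 is left out.

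With replicate 2 of the GLUT3-deficient Th17 group left out, 7.76% of all genes tested were called higher and 8.44% lower in GLUT3-deficient Th17 cells, and the median of all genes shifted by -0.147 on the log2 scale. Socs1 was still the 1 gene of the 9 called. The library's fold over the mean of the other 2 in its group differed between the genes: it was 5.58 for Stat2, 4.57 for Stat5a, 3.75 for Stat6, 3.48 for Stat5b, 2.43 for Stat3, 2.32 for Socs3, 1.46 for Stat4, 1.35 for Cish and 1.12 for Socs1. The Janus kinase genes summed to 752 TPM in it, against 214 and 174 TPM in the other 2, and Cd4 was 4.54-fold higher. Wild-type replicate 1 was the highest of its group for Stat3, Stat4, Stat5b and Cish in both lineages: Cish was 1.38-fold above the mean of the other 2 in Th17 cells and 1.68-fold in Th1 cells, and Stat3 1.94-fold in Th17 and 2.31-fold in Th1 cells, as Slc2a3 was 4.93-fold and 4.96-fold. The part of these libraries' other differences in the STAT values was not tested.

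**Figure D3:**
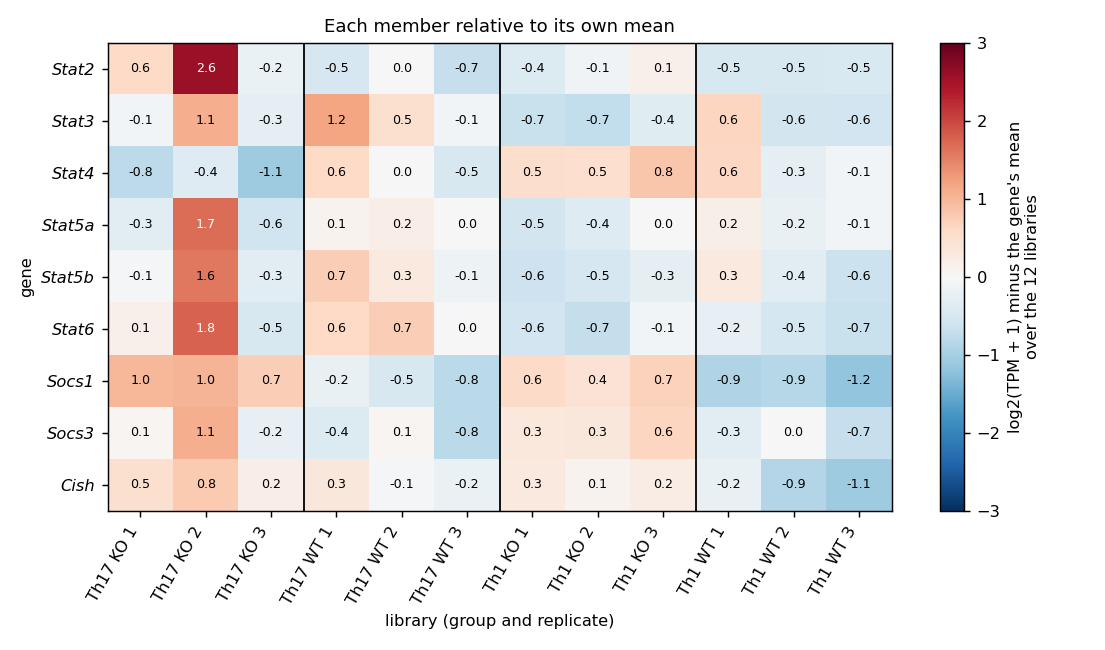
Log2(TPM + 1) of each gene (rows) in each library (columns) minus the gene's mean over the 12 libraries, with the difference printed in each cell. The KO columns are above the mean for Socs1 in both lineages, and Th17 KO replicate 2 is above the mean for every gene except Stat4.

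The lineages were compared within each genotype, which asks whether these genes mark Th17 or Th1 cells. Levels were set across the 2 tables, which were deposited separately, and these comparisons share their libraries with those between genotypes. In GLUT3-deficient cells Stat4 was the 1 gene of the 9 called, lower in Th17 than in Th1 cells with a log2 fold change of -1.37 ± 0.30 (95% interval -2.04 to -0.71, limma adjusted p = 0.0185), where 3.35% of all genes were called higher and 2.56% lower. Its 3 Th17 libraries, at 27.2 to 44.3 TPM, lay below its 3 Th1 libraries, at 83.0 to 105 TPM. The call was lost without Th17 KO replicate 1, Th17 KO replicate 3 or any of the 3 Th1 KO libraries, with log2 fold changes of -1.21 to -1.44 and limma adjusted p of 0.0528 to 0.0805. The other 8 genes had log2 fold changes of -0.13 (Socs3) to 1.12 (Stat2), with limma adjusted p of 0.26 to 0.871, and without Th17 KO replicate 2 these ran from -0.53 (Socs3) to 0.40 (Stat3). The libraries of these lineages did not overlap for 3 of the 9 genes, Stat4 (lower in Th17 cells), Stat3 and Socs1 (both higher), where this held for 29.7% of all genes.

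In wild-type cells none of the 9 genes was called between Th17 and Th1 by limma, where 1.85% of all genes were called higher and 1.78% lower, and 2 of the 9 had an unadjusted p under 0.05, as had 14.6% of all genes. Stat4 averaged 63.1 ± 24.3 TPM in wild-type Th17 and 64.2 ± 22.5 TPM in wild-type Th1 cells (SD, n = 3 each), with a log2 fold change of -0.04 ± 0.30 (95% interval -0.70 to 0.62, limma adjusted p = 0.965). Cish, at 202 to 295 TPM in Th17 and 112 to 201 TPM in Th1 cells, had a log2 fold change of 0.74 ± 0.23 (limma adjusted p = 0.132). It became a call without Th17 KO replicate 2, which enters the shared estimate of spread (limma adjusted p = 0.0478), and without Th1 WT replicate 1 (0.99, adjusted p = 0.0322). Stat6, at 87.4 to 146 TPM in Th17 and 54.2 to 73.6 TPM in Th1 cells, had a log2 fold change of 0.93 ± 0.45 (limma adjusted p = 0.373) and became a call without Th17 KO replicate 2 (adjusted p = 0.0334). Socs1, at 88.5 to 133 TPM in Th17 and 68.6 to 86.1 TPM in Th1 cells, had a log2 fold change of 0.46 ± 0.18 (limma adjusted p = 0.232). Cish, Stat6 and Socs1, 3 of the 9, did not overlap between these lineages, where this held for 26.7% of all genes. For Stat3, Stat5b, Stat5a, Stat2 and Socs3 the log2 fold changes were 0.68, 0.53, 0.15, 0.08 and -0.04, with limma adjusted p of 0.516 to 0.972.

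**Figure D4:**
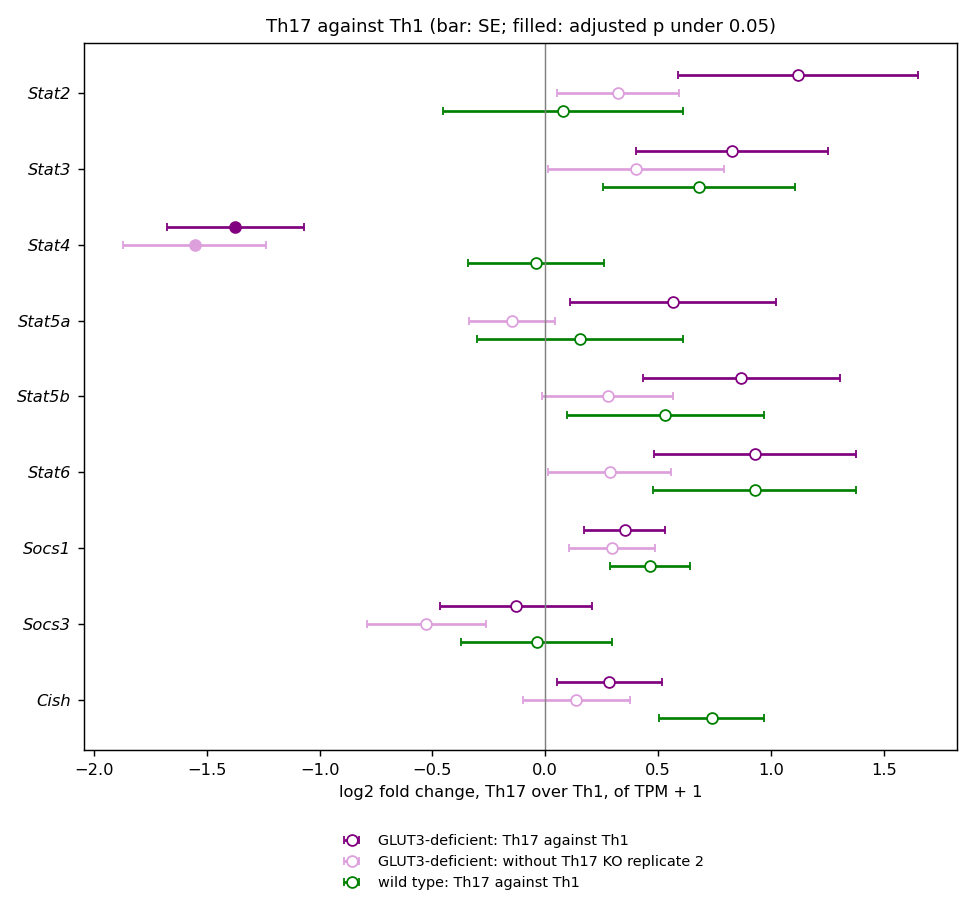
Log2 fold change of TPM + 1, Th17 over Th1 (horizontal axis), for each gene (rows), in GLUT3-deficient cells with and without Th17 KO replicate 2 and in wild-type cells. Points are limma estimates, bars are SE and filled points have an adjusted p under 0.05, which Stat4 alone has, in GLUT3-deficient cells.

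The difference of the genotype effects, Th17 minus Th1, was called by limma for 0 of the 9 genes, where 0.350% of all genes were called higher and 0.288% lower, and Stat4 alone had an unadjusted p under 0.05, as had 6.38% of all genes. The difference was 1.04 ± 0.75 for Stat2, 0.15 ± 0.60 for Stat3 and 0.41 ± 0.65 for Stat5a. It was 0.34 ± 0.62 for Stat5b, 0.002 ± 0.63 for Stat6 and -0.09 ± 0.47 for Socs3. For Socs1 the difference was -0.11 ± 0.25 (95% interval -0.66 to 0.44, limma adjusted p = 1.00), and for Cish it was -0.45 ± 0.33 (95% interval -1.17 to 0.26, limma adjusted p = 1.00).

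The 9 genes were also ranked within each group by mean TPM. In GLUT3-deficient cells the order began with Cish (333 ± 66.7 TPM in Th17 and 270 ± 18.4 TPM in Th1 cells, SD, n = 3 each) and Socs1 (298 ± 31.5 TPM in Th17 and 233 ± 22.2 TPM in Th1 cells). In wild-type cells it began with Stat3 (244 ± 107 TPM in Th17 and 154 ± 81.2 TPM in Th1 cells) and Cish (240 ± 48.2 TPM in Th17 and 146 ± 47.4 TPM in Th1 cells). The ranges of those leading pairs overlapped in all 4 groups. The lead of Stat3 in wild-type cells came from replicate 1 of each lineage: in replicates 2 and 3 Cish was above Stat3, at 224 and 202 against 223 and 149 TPM in Th17 cells and at 127 and 112 against 108 and 107 TPM in Th1 cells. Socs1 was above Stat3 in 2 of 3 GLUT3-deficient Th17 libraries and 3 of 3 GLUT3-deficient Th1 libraries. Socs1 ranked 4th in wild-type Th17 and 3rd in wild-type Th1 cells, with 111 ± 22.4 TPM in Th17 and 79.4 ± 9.43 TPM in Th1 cells.

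Other genes of the pathway, taken from lists of textbook members, gave the surroundings of these values. The counts of these lists, and of the marker lists further below, stand beside these shares over all genes tested. In GLUT3-deficient Th17 cells 4.60% were called higher and 2.70% lower, or 7.76% and 8.44% without GLUT3-deficient replicate 2. In GLUT3-deficient Th1 cells 17.6% were called higher and 13.7% lower. The Janus kinases had 0 of 4 called in either direction in GLUT3-deficient Th17 cells, and 1 of 4, Tyk2, higher in GLUT3-deficient Th1 cells (0.95 ± 0.16, limma adjusted p = 0.00266). Tyk2, the kinase of interleukin 12 and interferon receptors, stood at 9.53 to 10.4 TPM in those libraries, against 3.94 to 5.20 TPM in wild-type Th1 libraries. The other SOCS genes had 0 of 4 called in Th17 and 0 of 3 in Th1 cells. Socs2, an inhibitor that STAT5 also induces, stood at 55.8 to 62.1 TPM in GLUT3-deficient Th17 libraries, against 24.8 to 42.6 TPM in wild-type ones, a difference of 0.70 ± 0.26 that did not pass the test (limma adjusted p = 0.149). Other STAT inhibitors had 1 of 12 higher and 0 lower in GLUT3-deficient Th17 cells. Without GLUT3-deficient replicate 2 the count was 2 of 11 higher and 0 lower. In GLUT3-deficient Th1 cells 3 of 11 were higher and 0 lower.

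Cytokine receptor chains had 2 of 19 higher and 0 lower in GLUT3-deficient Th17 cells: Ifngr2, a chain of the interferon gamma receptor (1.76 ± 0.31, limma adjusted p = 0.0207), and Il15ra, the chain that binds interleukin 15 (1.24 ± 0.23, adjusted p = 0.0235). Without GLUT3-deficient replicate 2 the count was 8 of 19 higher and 0 lower. In GLUT3-deficient Th1 cells 10 of 19 were higher and 1 lower. The lower one was Il23r (-1.88 ± 0.16, limma adjusted p = 0.000128), and the higher ones included Ifnar1 of the type I interferon receptor (1.58 ± 0.21, adjusted p = 0.000847) and Il12rb2 of the interleukin 12 receptor (0.83 ± 0.13, adjusted p = 0.00191). Cytokine ligands had 5 of 12 higher and 0 lower in GLUT3-deficient Th17 cells (6 higher and 2 lower of 12 without replicate 2), and 8 of 13 higher and 2 lower in GLUT3-deficient Th1 cells. Ifng, the gene of interferon gamma and an inducer of Socs1, stood at 73.2, 119 and 54.7 TPM in GLUT3-deficient Th17 libraries, against 4.64, 1.99 and 3.77 TPM in wild-type ones. In Th1 cells Ifng stood at 8480, 8710 and 6740 TPM in GLUT3-deficient libraries, against 733, 487 and 1120 TPM in wild-type ones. The part of Ifng in the Socs1 values was not tested.

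Genes known to be targets of the STAT factors follow by factor. Genes of the type I interferon pathway, in which STAT2 works, had 14 of 20 higher and 0 lower in GLUT3-deficient Th17 cells (median log2 fold change 1.95) and 12 of 20 higher and 0 lower in GLUT3-deficient Th1 cells (median 0.96). Irf9, the partner of STAT2, stood at 94.4, 128 and 70.1 TPM in GLUT3-deficient Th17 libraries, against 31.4, 23.8 and 18.7 TPM in wild-type ones, and Usp18, an inhibitor of interferon receptors, changed by 4.08 ± 0.48 there (limma adjusted p = 0.00586). Without replicate 2 that list had 12 of 16 higher and 1 lower in Th17 cells.

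STAT4 targets had 8 of 15 higher and 0 lower in GLUT3-deficient Th17 cells (median 1.58), among them Gzmb for granzyme B (3.14 ± 0.27, limma adjusted p = 0.00174). In GLUT3-deficient Th1 cells they had 12 of 15 higher and 3 lower (median 1.27). STAT3 targets had 1 of 16 higher, Il21 (1.21 ± 0.28, limma adjusted p = 0.0454), and 0 lower in GLUT3-deficient Th17 cells (median 0.26), and 8 higher and 3 lower of 16 in GLUT3-deficient Th1 cells (median 0.44). STAT5 targets had 6 of 22 higher and 0 lower in GLUT3-deficient Th17 cells (median 0.70), and 11 higher and 2 lower of 22 in GLUT3-deficient Th1 cells (median 0.74). Ccnd3, for cyclin D3, was among those higher in both (1.84 ± 0.30, limma adjusted p = 0.0157 in Th17 and 2.23 ± 0.13, adjusted p = 3.29e-05 in Th1 cells). STAT6 targets had 1 of 8 higher, Il4 (2.81 ± 0.47, limma adjusted p = 0.0177), and 0 lower in GLUT3-deficient Th17 cells, and 4 higher and 2 lower of 9 in GLUT3-deficient Th1 cells. Without GLUT3-deficient replicate 2 the Th17 counts were 8 higher and 2 lower of 13 STAT4 targets, 3 higher and 1 lower of 16 STAT3 targets, 8 higher and 2 lower of 21 STAT5 targets, and 2 higher and 1 lower of 8 STAT6 targets. Many genes are in more than 1 list, among them Il4, Ifng, Gzmb, Il21, Irf1, Usp18, Lta and Maf, so the counts share genes. Il21 was counted among STAT3 targets, STAT4 targets and cytokine ligands. The lists were not tested against other genes.

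**Figure D5:**
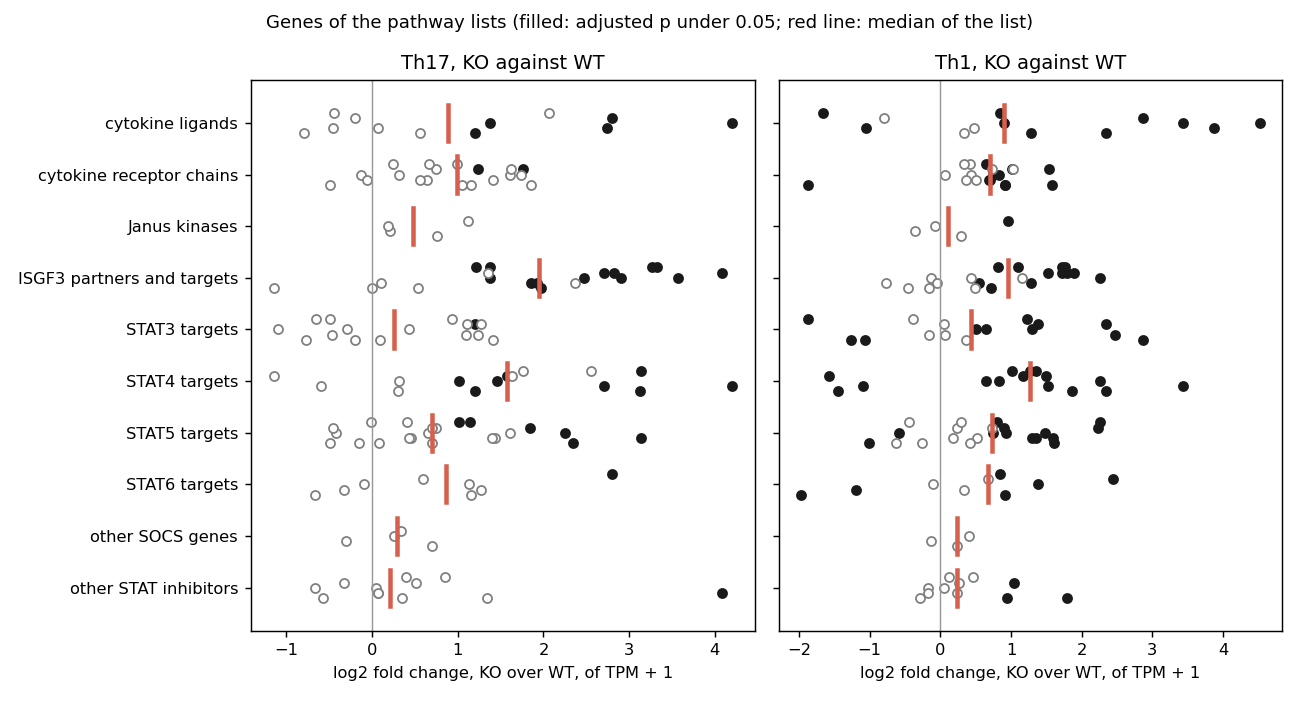
Log2 fold change of TPM + 1, KO over WT (horizontal axis), of the genes of 10 pathway lists (rows) in Th17 cells on the left and Th1 cells on the right. Points are genes, filled where the limma adjusted p is under 0.05, and the red line is the median of the list, which is 1.95 for interferon pathway genes in Th17 cells and 1.27 for STAT4 targets in Th1 cells.

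Markers of other cells and immediate early genes moved with genotype beside Socs1 and Cish. Immediate early genes, which respond to receptor signals and to handling, had 6 of 15 higher and 0 lower in GLUT3-deficient Th17 cells and 14 of 16 higher and 0 lower in GLUT3-deficient Th1 cells. The gamma delta T cell genes tested were higher in both lineages, 4 of 4 in each. Their list of 5, in which Sox13 was at or under 0.263 TPM throughout, summed to 165 to 255 TPM in GLUT3-deficient and 17.4 to 20.2 TPM in wild-type Th17 libraries, and to 171 to 268 TPM in GLUT3-deficient and 13.9 to 33.4 TPM in wild-type Th1 libraries. CD8 and NK cell markers had 2 of 6 higher and 0 lower in Th17 cells and 4 of 6 higher and 2 lower in Th1 cells. The 2 lower in Th1 cells were the CD8 genes themselves. Cd8a averaged 0.837 TPM in GLUT3-deficient and 2.38 TPM in wild-type Th1 cells, and Cd8b1 averaged 12.1 and 21.3 TPM. The 4 higher were Klrd1, Klrk1, Klrc1 and Eomes, with Klrc1 at a mean of 106 against 14.9 TPM. The list of 8 CD8 and NK cell markers summed to 90.7 to 108 TPM in GLUT3-deficient and 49.1 to 64.2 TPM in wild-type Th17 libraries. In Th1 libraries it summed to 195 to 283 TPM in GLUT3-deficient and 62.1 to 78.5 TPM in wild-type ones.

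Myeloid markers had 4 of 6 higher and 0 lower in GLUT3-deficient Th17 cells and 2 of 3 higher and 0 lower in GLUT3-deficient Th1 cells. The list of 11 summed to 47.1 to 68.9 TPM in GLUT3-deficient and 12.5 to 14.6 TPM in wild-type Th17 libraries, and to 25.2 to 46.1 TPM in GLUT3-deficient and 10.9 to 14.1 TPM in wild-type Th1 libraries. The called genes in Th17 cells were Tyrobp (2.02 ± 0.24, limma adjusted p = 0.00657), S100a8 (1.74 ± 0.23, adjusted p = 0.00857), Fcer1g (2.08 ± 0.29, adjusted p = 0.00984) and Lyz2 (2.08 ± 0.42, adjusted p = 0.0318), and Tyrobp and Fcer1g were those called in Th1 cells. S100a8 was listed at 0 in all 3 wild-type Th17 libraries, against 1.62 to 3.37 TPM in GLUT3-deficient ones. The macrophage genes Csf1r and Adgre1 were at or under 0.413 and 0.104 TPM in every library. B cell markers had 1 of 5 higher (Igkc) and 0 lower in GLUT3-deficient Th17 cells, and 0 of 6 higher and 1 lower (Ebf1) in GLUT3-deficient Th1 cells. The list of 8 summed to 132 to 199 TPM in GLUT3-deficient and 114 to 154 TPM in wild-type Th17 libraries, and to 332, 475 and 69.2 TPM in GLUT3-deficient and 90.3 to 114 TPM in wild-type Th1 libraries. Of the red cell and platelet markers, 2 of 6 were higher in GLUT3-deficient cells of each lineage, the platelet genes Pf4 and Ppbp. That list of 8 summed to 45.8 to 114 TPM in GLUT3-deficient and 9.23 to 17.6 TPM in wild-type Th17 libraries, and to 59.1 to 197 TPM in GLUT3-deficient and 11.7 to 25.2 TPM in wild-type Th1 libraries. Without replicate 2 of the GLUT3-deficient Th17 group 3 of 4 myeloid, 1 of 4 B cell, 3 of 6 red cell and platelet, 4 of 4 gamma delta T cell, 3 of 5 CD8 and NK cell and 8 of 15 immediate early genes were higher in Th17 cells, and 0 lower. T cell markers summed to 5940 to 6440 TPM in GLUT3-deficient and 4540 to 5730 TPM in wild-type Th17 libraries, and to 6360 to 6560 TPM in GLUT3-deficient and 4420 to 5000 TPM in wild-type Th1 libraries. Of these, 1 of 8 was higher and 0 lower in Th17 cells (2 and 0 without replicate 2), and 5 of 8 and 0 in Th1 cells. Regulatory T cell markers had 1 of 5 higher and 0 lower in Th17 cells (2 and 0 without replicate 2), and 2 of 5 and 0 in Th1 cells. Th2 markers had 1 of 3 higher and 0 lower in Th17 cells (1 and 1 without replicate 2), and 1 higher and 1 lower of 4 in Th1 cells. The part of these other cells, and of receptor signals, in the values of the inhibitors was not tested.

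The genes most like each of the 9 in their course over the 12 libraries were sought among 8255 genes by the root mean square difference of centred log2(TPM + 1). The nearest to Socs1 was Zfyve21 (0.127, where Socs1 itself varied by 0.789 about its mean), followed by Ccdc71l (0.194) and Rab3ip (0.204). The nearest to Cish was Wdr45b (0.117, against 0.51 for Cish itself), and to Socs3 it was Dmwd (0.196, against 0.525). The nearest to Stat6 was Hjurp (0.111, against 0.7), to Stat5b Khnyn (0.134, against 0.621), to Stat5a Nrde2 (0.16, against 0.57), to Stat3 Evi5l (0.165, against 0.651) and to Stat2 Snx25 (0.199, against 0.849). Stat4 had no neighbour as close: its nearest was Gpr65, a proton-sensing receptor, at 0.277, against 0.593 for Stat4 itself. These are descriptions over libraries that share groups and depth.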

How the data were processed

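RNA had been sequenced from 1 end in 12 libraries prepared with SMART-Seq v4 and Nextera XT from 5 ng of RNA each, kits that mark no strand, per the labels' protocols. STAR 2.7.2b, featureCounts 1.6.4, cutadapt, bcl2fastq 2.20.0.422 and DESeq2 1.24.0 appear in the submitters' processing notes, as does the build GRCm38.p6, and no step is described. The authors deposited 1 table of TPM per lineage, which sums to 1000000 in each library and writes decimals with a comma. TPM times exon length gave whole reads, within 0.02 reads, for 100% of the values, so depth is known. For 1 kb of exon, 3 reads equal 0.190 to 0.437 TPM, a floor for counting error alone.

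Groups came from the sample titles. Limma 3.58.1 in R 4.3.3 was run on log2(TPM + 1) with a mean-variance trend, two-sided. Genotypes were compared on the 6 libraries of a lineage, lineages and the difference of effects on all 12. The script was tested on simulated data. Same-numbered Th17 libraries deviated together between genotypes (r of 0.14, 0.41 and 0.23), as did wild-type libraries between lineages (0.72, 0.26 and 0.53). The highest r with a library of another number was 0.09, -0.13 and 0.11 between Th17 genotypes. Between wild-type lineages it was -0.32, 0.28 and 0.21, so for number 2 another number came closer. Same-numbered libraries of Th1 genotypes (0.16, 0.21 and -0.07) and of GLUT3-deficient lineages (0.22, -0.04 and -0.19) did not deviate together throughout. The tests reported ignored this pairing, and a block for replicate number was run as an alternative only. No 2 libraries agreed within sampling noise (chi-square per gene at least 12.2).

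All 9 genes were tested in every comparison, and between GLUT3-deficient lineages most values are given as a range. From each list of pathway genes or markers, counts are given, with up to 4 of its called genes of lowest adjusted p by name. Sums of a list's TPM, ratios and some list values are descriptions and outside that rule. The 3 nearest genes were sought among genes with a mean of at least 5 TPM. The members and lists were chosen with earlier results of these data known. Alternatives were other pseudocounts, no filter, median-of-ratios scaling, voom on the recovered reads with TMM scaling, the replicate block, other sets of libraries in the model and each library left out.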

Additional observations from a re-analysis of the deposited data

How the results depend on the processing

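No called result changed direction under the alternatives run. Of 820 fold changes under alternatives, 50 had the opposite sign to the value reported, none of them a call (lowest limma adjusted p = 0.0772). Median-of-ratios scaling turned Stat6 between Th17 genotypes (-0.034) and Th1 genotypes (-0.026), Stat2 (-0.071) and Stat5a (-0.022) between wild-type lineages, and Slc2a3 between GLUT3-deficient lineages (-0.0081). Voom turned Stat6 between Th17 genotypes (-0.028), between Th1 genotypes (-0.027) and in the difference of effects (-0.046), Stat2 between wild-type lineages (-0.061) and Slc2a3 between GLUT3-deficient lineages (-0.10). With 1 library left out, values of both signs were met for Stat3 (-0.72 to 0.038), Stat5a (-0.58 to 0.56), Stat5b (-0.49 to 0.47) and Stat6 (-0.62 to 0.50) between Th17 genotypes. Between Th1 genotypes this held for Stat5b (-0.43 to 0.030) and Stat6 (-0.16 to 0.15). Between GLUT3-deficient lineages it held for Stat5a (-0.15 to 0.99), Socs3 (-0.53 to 0.14) and Slc2a3 (-0.50 to 0.60). Between wild-type lineages it held for Stat2 (-0.13 to 0.22), Stat4 (-0.32 to 0.22), Socs3 (-0.26 to 0.17) and Slc2a3 (-0.94 to 0.64). In the difference of effects it held for Stat3 (-0.28 to 0.47), Stat5a (-0.30 to 0.84), Stat5b (-0.26 to 0.70), Stat6 (-0.64 to 0.48), Socs1 (-0.26 to 0.029), Socs3 (-0.49 to 0.18) and Slc2a3 (-0.49 to 1.09).

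The number of the 9 genes called ranged from 0 to 1 with libraries left out for GLUT3-deficient against wild-type Th17 cells (1 with all libraries), from 0 to 1 for GLUT3-deficient Th17 against GLUT3-deficient Th1 cells (1 with all), and from 0 to 2 for wild-type Th17 against wild-type Th1 cells (0 with all). Pseudocounts, filter, scaling and voom moved none of these counts, and for GLUT3-deficient against wild-type Th1 cells the count stayed within 1.5 times of 3 in all 13 alternatives. With the replicate block the counts were 1, 3, 0, 1 and 0, as without it, and it changed no call of the 9 genes.

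Over all genes, 1009 were called between Th17 genotypes, 2933 with all 12 libraries in the model and 109 to 2158 with 1 library left out. Between Th1 genotypes 4220 were called, 2568 with all 12 libraries and 2594 to 4587 with 1 left out. Between wild-type lineages 529 were called and 309 to 1582 with 1 left out, between GLUT3-deficient lineages 861 and 449 to 1219, and for the difference of effects 93 and 21 to 171. The split of higher and lower calls between wild-type lineages was 270 and 259, against 211 and 376 with median-of-ratios scaling and 255 and 396 with voom. For the difference of effects it was 51 and 42, against 47 and 18 with voom. Between GLUT3-deficient lineages 373 were lower, against 562 with voom, and 488 higher, against 284 with only those 6 libraries. Between Th17 genotypes 373 were lower, against 248 with no filter. Median-of-ratios scaling shifted the median of all genes by -0.146 between wild-type and -0.141 between GLUT3-deficient lineages. The Slc2a3 call in Th17 cells was lost with a pseudocount of 5 (adjusted p = 0.0505), with no filter (0.089) and without any library of the group other than GLUT3-deficient replicate 2 (0.0654 to 0.136). The cause of these changes was not tested.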
